A study of Homo sapiens with 4 samples.

Results

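The genes described here encode the aminoacyl-tRNA synthetases of the cytosol and of mitochondria, together with the scaffold proteins AIMP1 and AIMP2 of the cytosolic synthetase complex. They were taken by gene symbol, as 37 genes, of which 21 were counted as cytosolic and 16 as mitochondrial. A probe set naming only that gene was found for 33 of them, 18 cytosolic and 15 mitochondrial, among 19775 genes with such a probe set, and each gene was read by the brightest of its own probe sets. All 33 passed the filter on low values and belong to the 12728 genes tested. The other 4 were not analysed here: the probe sets of MARS1, QARS1 and TARS2 are annotated jointly to a microRNA gene, and AIMP2 had no named probe set.

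MDA-MB-361, an established human line of breast cancer, was measured on 4 arrays of the Affymetrix U133 Plus 2.0 type. The control array came from cells with the empty lentiviral vector pLKO, and the other 3 came from cells in which the same vector expresses an shRNA against DCD (dermcidin), with a different hairpin in each, labelled clone 1, clone 2 and clone 3. The labels call these derivatives clones and the study's text also calls them cell pools, and no treatment, time or passage is given for any array. The question was which genes differ from pLKO in cells in which DCD is targeted, and each clone was set against the same pLKO array, which has no replicate, so that a peculiarity of that culture enters all 3 comparisons. DCD lay under the floor of 16 set for low intensities on all 4 arrays, with deposited intensities from 2 to 7, so the arrays do not check the knockdown.

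The arrays were not of equal quality. The control probe sets at the 3' and 5' ends of a transcript give a ratio that is high in degraded or incompletely labelled RNA. This 3' to 5' ratio was 5.29 for ACTB in pLKO, 2.58 in clone 2, 9.67 in clone 1 and 42.6 in clone 3, and for GAPDH it was 1.09, 1.02, 2.18 and 13.1 in the same order. Clone 3 also correlated least with pLKO (Pearson's r = 0.722 across probe sets, against 0.889 for clone 1 and 0.937 for clone 2). All 8 luminal epithelial markers, among them KRT8, KRT18, EPCAM and ERBB2, lay above the floor on every array, with a summed level from 17203 in pLKO to 29243 in clone 1. The summed level was 267 to 551 for 6 fibroblast markers, of which 1 to 4 were at the floor, 112 to 155 for 5 leukocyte markers, of which 2 to 3 were, and 91.5 to 110 for 4 endothelial markers, of which CDH5 was at the floor on every array. The part of RNA quality in the results below was not tested, and values are therefore given for each clone. In bulk RNA, fewer cells and less RNA per cell cannot be told apart.

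Aminoacyl-tRNA synthetases join each amino acid to its tRNA and so supply the ribosome. Human cells carry separate nuclear genes for most of the cytosolic and the mitochondrial enzymes, while GARS1 and KARS1 serve both compartments and EPRS1 holds the glutamyl and prolyl activities in 1 protein. Several cytosolic enzymes are held with the AIMP proteins in the multisynthetase complex. Many cytosolic synthetase genes are induced by the transcription factor ATF4 when amino acids are short or the endoplasmic reticulum is stressed, and this response is best known for the cytosolic enzymes.

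As a group the cytosolic synthetases lay below pLKO in clones 1 and 2, and the mitochondrial ones lay close to it. The median log2 difference of the 18 cytosolic members from pLKO was -0.56 in clone 1, -0.72 in clone 2 and -0.04 in clone 3, beside 0.01, 0.00 and -0.11 over all genes tested. For the 15 mitochondrial members it was 0.05, -0.05 and -0.29. The cytosolic median thus lay below the mitochondrial one by a log2 difference of -0.61 in clone 1 and -0.68 in clone 2, and above it by 0.24 in clone 3. Median centring of the arrays gave -0.69, -0.68 and -0.15, so the sign in clone 3 rests on the normalization. Averaging every probe set of a gene, in place of taking the brightest, gave -0.22, -0.21 and 0.23.

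**Figure D1:**
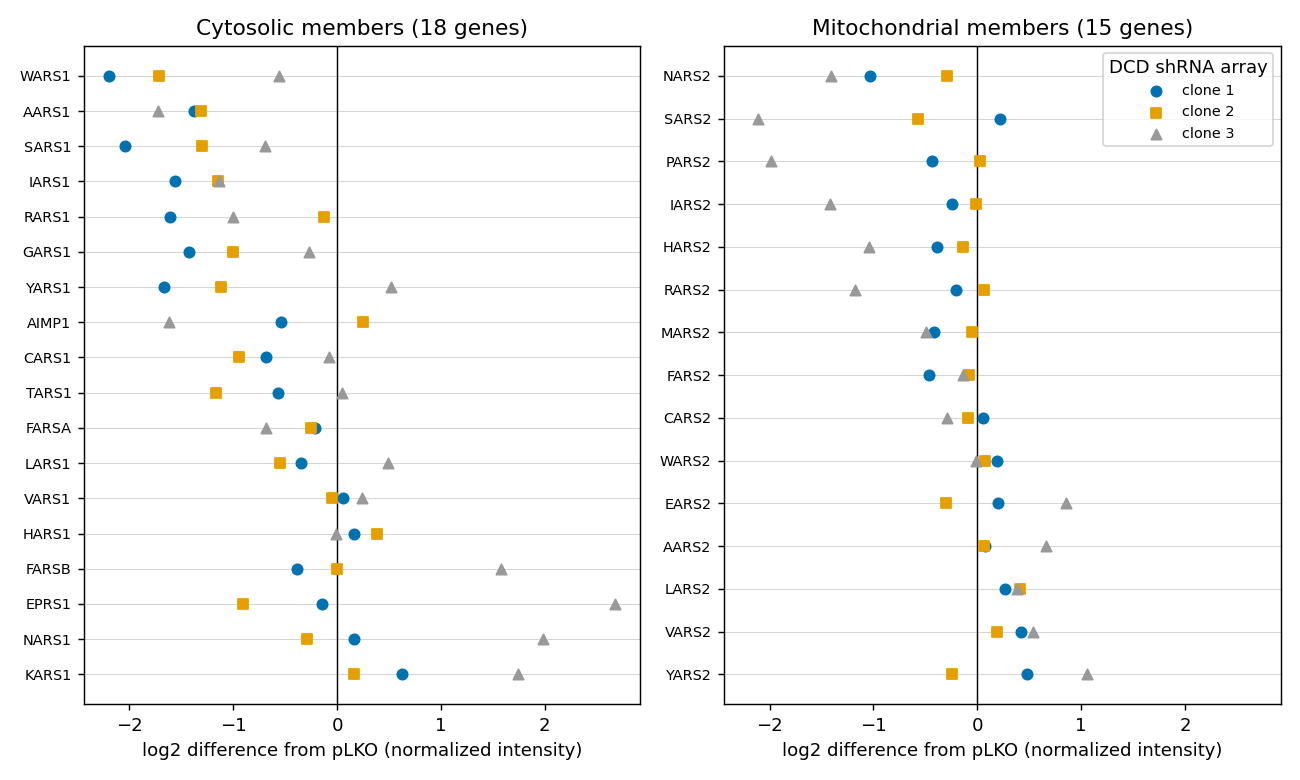
Normalized intensity relative to pLKO (log2 difference) for the 18 cytosolic (left) and 15 mitochondrial (right) members, read by their brightest probe sets and ordered by the mean of the 3 differences. Each point is 1 comparison (circle, clone 1; square, clone 2; triangle, clone 3) and the vertical line marks no difference. AARS1, IARS1, SARS1 and WARS1 lie left of the line in every clone, and the clone 3 points of EPRS1, NARS1 and KARS1 lie far to the right.

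Of the 18 cytosolic members, 8 lay below pLKO in every clone, KARS1 alone lay above it in every clone, and the other 9 were mixed, where in the deposited values RARS1, FARSA and KARS1 lost their single direction and LARS1, TARS1 and YARS1 were lower in every clone, as they also were after median centring. Over all genes tested 21.3% were lower in all 3 and 18.8% were higher. By clone, 14, 15 and 10 of the 18 were lower in clones 1, 2 and 3, against 48.5%, 49.2% and 53.8% of all genes. Without clone 3, whose 3' to 5' ratios were highest, 13 of the 18 were lower in both remaining comparisons, where 30.8% of all genes were. By size, 7 cytosolic members were at least 2-fold lower in clone 1, 7 in clone 2 and 3 in clone 3, beside 9.09%, 4.34% and 22.4% of all genes. In clones 1 and 2 alike, 6 of the 18 (AARS1, GARS1, IARS1, SARS1, WARS1 and YARS1) were at least 2-fold lower, as were 1.98% of all genes. Median centring also gave 6, beside 346 of the 12728 genes tested, and the deposited values gave 1, beside 246. At least 2-fold in every comparison was reached by 2 of them, AARS1 and IARS1, beside 0.817% of all genes, whereas after median centring 4 reached it (AARS1, IARS1, SARS1 and WARS1, beside 1.44%) and in the deposited values WARS1 alone did (beside 1.41%). With quantile normalization at least 3-fold in every comparison was reached by 0 of the 33 members, beside 0.181%.

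AARS1, the alanyl-tRNA synthetase, had a normalized intensity of 1904 in pLKO against 734 in clone 1, 769 in clone 2 and 576 in clone 3. The 3 clones all lie below the control, and the range of their log2 differences was 0.42 here, 1.41 after median centring and 2.29 in the deposited values. Its mean log2 difference was -1.47 ± 0.22 (SD, n = 3 comparisons). In limma, which fits both groups of arrays over all 27307 probe sets tested and takes the lone pLKO array to vary like the clones, its SE was 0.65, its unadjusted p = 0.0541 and its adjusted p = 0.9998. This was the smallest p of any member.

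IARS1, the isoleucyl-tRNA synthetase and a subunit of the multisynthetase complex, had 922 in pLKO, 312 in clone 1, 417 in clone 2 and 420 in clone 3. Every clone was at least 2.19-fold lower than the control. Its mean log2 difference was -1.28 ± 0.24 (SD, n = 3 comparisons), with a limma p of 0.0861 before adjustment.

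SARS1, the seryl-tRNA synthetase, had 631 in pLKO against 153 in clone 1, 256 in clone 2 and 391 in clone 3. It was 4.12-fold, 2.47-fold and 1.61-fold lower in these clones, and its second probe set was lower in clones 1 and 2 but had a log2 difference of 0.52 in clone 3. AARS1, IARS1 and SARS1 were the only members at least 1.5-fold lower in all 3 comparisons (3 of 18 cytosolic and 0 of 15 mitochondrial, beside 3.3% of all genes), and 0 members were as much higher in all 3, beside 2.56%. After median centring 7 cytosolic members passed this limit (these 3 with CARS1, GARS1, TARS1 and WARS1, beside 4.96% of all genes), and in the deposited values 7 did (these 3 with GARS1, TARS1, WARS1 and YARS1, beside 3.72%), with 0 mitochondrial members under either. With quantile normalization SARS1 was the last inside that limit and WARS1 the first outside it.

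WARS1, the tryptophanyl-tRNA synthetase, which interferon also induces, had 543 in pLKO, 119 in clone 1, 165 in clone 2 and 369 in clone 3. These are 4.57-fold, 3.28-fold and 1.47-fold lower, with a mean log2 difference of -1.49 ± 0.84 (SD, n = 3 comparisons). Its other probe set had 178 in pLKO, 33.0 in clone 2 and the floor of 16 in clones 1 and 3, so by that probe set WARS1 was at least 11.2-fold lower in clones 1 and 3 and 5.40-fold lower in clone 2.

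The directions of AARS1, IARS1, SARS1 and WARS1 in each clone were also the same in the deposited values and after median centring. By their brightest probe sets, YARS1 and GARS1 were also far lower in clones 1 and 2. YARS1, the tyrosyl-tRNA synthetase, had 442 in pLKO, 140 in clone 1 and 205 in clone 2 but 634 in clone 3. With median centring it was lower in clone 3 too, by -0.32 on the log2 scale, where the median of all genes was -0.53. The second YARS1 probe set had log2 differences of only -0.27 and -0.34 in clones 1 and 2, and 1.65 in clone 3. GARS1, the glycyl-tRNA synthetase of both compartments, had 1018 in pLKO, 378 in clone 1, 507 in clone 2 and 847 in clone 3. TARS1 (threonine) had 795 in pLKO against 535, 355 and 823, and CARS1 (cysteine) had 332 against 207, 173 and 315, in the order of the clones. For both, clones 1 and 2 were below the control and clone 3 was within 1.05-fold of it. After median centring, however, TARS1 had -0.80 and CARS1 -0.85 in clone 3 on the log2 scale, and -1.42 and -1.47 in the deposited values. The median of all genes in clone 3 was -0.53 and -1.07 under these scalings. The TARS1 and CARS1 values are those of the brightest probe sets, and the other tested ones disagreed. For CARS1, one was higher in every clone (0.97, 0.47 and 0.71, with pLKO at the floor), and one had -1.47, -0.47 and 0.37. The second TARS1 probe set had -0.39, -0.28 and 1.14. RARS1, the arginyl-tRNA synthetase, was 3.05-fold lower in clone 1 and 2.00-fold lower in clone 3 but 1.09-fold lower in clone 2, the clone with the lowest 3' to 5' ratios.

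**Figure D2:**
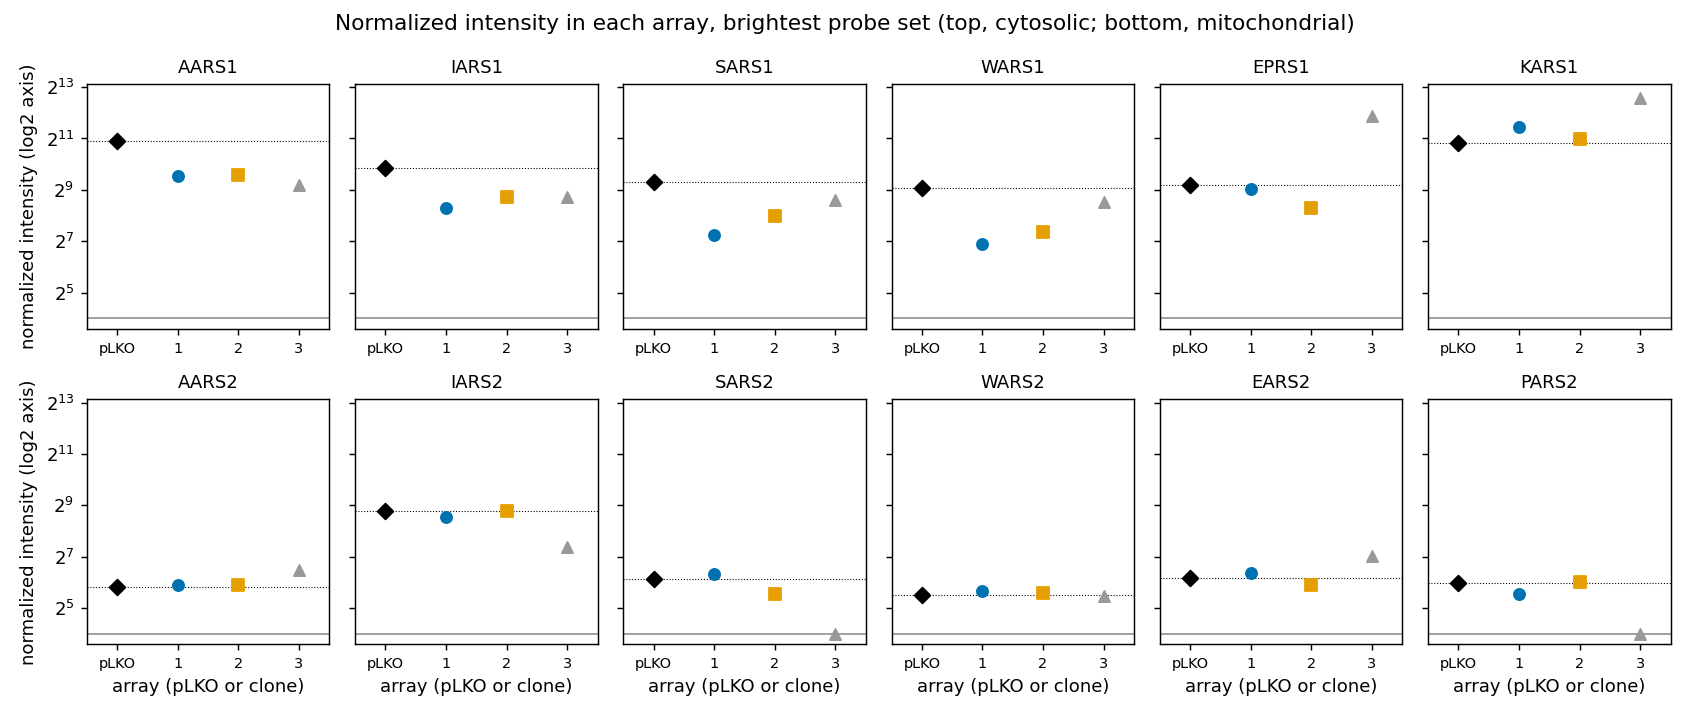
Normalized intensity (log2 axis) on each of the 4 arrays for 6 cytosolic members (top) and 6 mitochondrial members (bottom), by the brightest probe set. The diamond and dotted line mark pLKO, the circle, square and triangle are clones 1, 2 and 3, and the lower grey line is the floor of 16. Points are to be compared within a panel, since probe sets differ in brightness. AARS1 lies at 1904 in pLKO and from 576 to 769 in the clones, while AARS2 lies at 56.9 in pLKO and from 59.6 to 90.1 in the clones.

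The promoters of the members were searched for the letters that ATF4 dimers are known to bind. RefSeq promoters (GRCh38.p14, 250 bases before to 50 after an annotated start) were found for 32 of the 37 genes (not for AARS2, YARS1, VARS1, LARS1 or VARS2) and searched on both strands for TGATGNAA, the core of the C/EBP-ATF response element. It was present in 7 of 18 cytosolic genes (38.9%), 1 of 14 mitochondrial genes (7.14%), 3.6% of protein-coding genes, 4.46% of all genes of the table and 2.97% of the genes tested here. Among cytosolic genes commonly listed as ATF4 targets, 7 of the 10 with a promoter had it. The 30 bases around each match are shown to let the shared letters be compared, 5' to 3' on the strand of the gene, with the match in capitals. Positions count from the annotated start, with negative numbers before it.

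AARS1 (chr16:70289675-70289704, minus strand, match beginning at base -187): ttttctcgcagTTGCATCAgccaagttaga
IARS1 (chr9:92293692-92293721, minus strand, match beginning at base -13): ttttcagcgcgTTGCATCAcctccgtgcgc
CARS1 (chr11:3057407-3057436, minus strand, match beginning at base -2): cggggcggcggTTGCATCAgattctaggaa
GARS1 (chr7:30594834-30594863, plus strand, match beginning at base -33): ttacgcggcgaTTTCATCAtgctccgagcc
TARS1 (chr5:33440956-33440985, plus strand, match beginning at base 3): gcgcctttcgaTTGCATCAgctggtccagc
NARS1 (chr18:57621804-57621833, minus strand, match beginning at base 15): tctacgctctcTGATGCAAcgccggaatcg
MARS1 (chr12:57488053-57488082, plus strand, match beginning at base -4): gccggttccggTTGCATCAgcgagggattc
YARS2 (chr12:32756076-32756105, minus strand, match beginning at base -197): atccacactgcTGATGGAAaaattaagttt

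AARS1, IARS1, CARS1, TARS1 and MARS1 carry the identical 8 letters TTGCATCA, and NARS1 carries their reverse complement. AARS1 and IARS1, at least 2-fold lower in each clone, are among these genes. The 6 cytosolic genes with a match and a measured level (AARS1, CARS1, GARS1, IARS1, NARS1 and TARS1) had a median log2 difference of -1.03 in clone 1, -1.07 in clone 2 and -0.17 in clone 3. The 9 measured cytosolic genes with a promoter but no match had -0.38, -0.12 and -0.56. SARS1 and WARS1 hold no match in this window although SARS1 was at least 1.5-fold lower in each clone, and NARS1 holds a match although it was higher than pLKO in clone 3 under every scaling, so the letters and the differences did not go together gene by gene. A match in these windows describes the letters and does not show binding.

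By the wider list of 13 cytosolic genes commonly given as ATF4 targets, 12 of them measured, 6 were lower in all 3 comparisons. Their median log2 difference was -1.03 in clone 1, -1.06 in clone 2 and -0.01 in clone 3. In clone 2 all 12 lay below pLKO, the nearest to it being VARS1 at -0.04 and NARS1 at -0.28, and in clone 1 10 of the 12 did. In the deposited values 10 did in clone 2, where VARS1 (0.30) and NARS1 (0.08) lay above, and after median centring 11 did. All 12 lay below pLKO in clone 1 under both. In clone 3, 6 of the 12 lay below pLKO with quantile normalization, but 10 did under each of these other scalings. Of the 12728 genes tested, 6850 lay below pLKO in clone 3 with quantile normalization, 8654 after median centring and 10755 in the deposited values. In clones 1 and 2 it was 8933 and 5395 of all genes after median centring, and 9171 and 3356 in the deposited values. So the clone 3 value rests on the scaling, and the count over all genes moves with it. Under each of the other scalings, 9 were lower in all 3 comparisons, beside 3461 of all genes after median centring and 2599 in the deposited values. With quantile normalization the 6 other measured cytosolic members (FARSA, FARSB, HARS1, KARS1, RARS1 and AIMP1) had medians of -0.30, 0.08 and -0.35. By structural class, the cytosolic class I enzymes, which share the Rossmann fold, had medians of -1.12, -0.92 and 0.08, and those of class II had -0.38, -0.28 and -0.01, with EPRS1 counted in class I.

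The measured parts of the multisynthetase complex did not share a direction. Of its 6 measured members (EPRS1, IARS1, LARS1, RARS1, KARS1 and AIMP1), IARS1 and RARS1 were lower in every clone (RARS1 not in the deposited values, with 0.22 in clone 2), KARS1 was higher, and the other 3 were mixed, of which LARS1 was lower in every clone in the deposited values and after median centring. KARS1, the lysyl-tRNA synthetase, had 1830 in pLKO, 2822 in clone 1, 2045 in clone 2 and 6134 in clone 3. It was the only cytosolic member higher in all 3 comparisons, a call that is lost with median centring, where it had -0.09 in clone 1, and its second probe set had log2 differences of -0.04, 0.24 and -0.36. LARS1, the leucyl-tRNA synthetase, had 154 in pLKO against 121, 106 and 217 by its brightest probe set, while its other tested probe sets disagreed, with mean log2 differences of -1.16 and 0.80.

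AIMP1, a scaffold of the complex and precursor of the cytokine EMAPII, had 334 in pLKO, 229 in clone 1, 396 in clone 2 and 108 in clone 3. Clone 2 lay above the control and the others below. Its other probe sets gave 0.08, 0.03 and 0.41, and -0.29, -0.14 and 0.98, as log2 differences in clones 1, 2 and 3, so clone 3 was lower by only 1 of the 3 probe sets.

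Clone 3 held the widest departures, with 4 cytosolic members at least 2-fold higher than pLKO (EPRS1, NARS1, KARS1 and FARSB) beside 14.9% of all genes. After median centring 2 were, beside 949 of the 12728 genes tested, and in the deposited values 1 was, beside 274. EPRS1, the joint glutamyl and prolyl enzyme, had 583 in pLKO, 527 in clone 1, 312 in clone 2 and 3727 in clone 3, which was 6.39-fold above the control. Another of its probe sets had a log2 difference of 1.62 in clone 3 and one more had -0.11. NARS1, the asparaginyl-tRNA synthetase, had 1259 in pLKO, 1409 in clone 1, 1033 in clone 2 and 4980 in clone 3, and FARSB, the beta subunit of the phenylalanyl enzyme, had 231, 177, 231 and 689. Both FARSB probe sets tested were higher in clone 3, with log2 differences of 1.58 and 2.82, while FARSA, the alpha subunit, was 1.61-fold lower there. In the values as deposited, clone 3 was above pLKO for EPRS1 (1880 against 794), NARS1 (2585 against 1793), KARS1 (3377 against 2651) and FARSB (338 against 301), and the log2 differences there were smaller than after normalization (1.24 against 2.68 for EPRS1). The ACTB 3' to 5' ratio was 42.6 on this array, and its part in these values was not tested.

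By their brightest probe sets HARS1 and VARS1 lay near the control after quantile normalization. Under the other scalings their differences in clones 1 and 3 were wider. HARS1, the histidyl-tRNA synthetase, had 131 in pLKO, 147 in clone 1, 171 in clone 2 and 130 in clone 3, and VARS1, the valyl-tRNA synthetase, had 85.5, 89.1, 82.9 and 101. The second VARS1 probe set, at the floor in pLKO and clone 1, had log2 differences of 0.73 in clone 2 and 0.86 in clone 3. In clones 2 and 3 the log2 differences of HARS1 were 0.54 and -0.64 after median centring and 0.80 and -1.26 in the deposited values, and VARS1 had -0.94 in clone 3 in the latter. After median centring VARS1 had -0.39, 0.03 and -0.31 in clones 1, 2 and 3. The median of all genes tested in clones 2 and 3 was 0.09 and -0.53 after median centring, and 0.35 and -1.07 in the deposited values. FARSA had 92.0 in pLKO and 79.3, 77.2 and 57.1 in the clones, while its second probe set was at the floor in pLKO and clone 1, at 17.4 in clone 3 and at 89.3 in clone 2.

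Among the 15 mitochondrial members, 5 lay below pLKO in every clone, 3 lay above it and 7 were mixed, and by clone 7, 9 and 10 were lower. Over all genes 21.3% were lower and 18.8% higher in all 3, and 48.5%, 49.2% and 53.8% were lower by clone. Of these 5, FARS2, HARS2, IARS2, MARS2 and NARS2, none lay below pLKO in clone 2 in the deposited values. There 3356 of the 12728 genes tested did, and the median log2 difference of all genes was 0.35. At least 2-fold lower were 1 in clone 1 (NARS2), 0 in clone 2 and 6 in clone 3, beside 9.09%, 4.34% and 22.4% of all genes. Clone 2, whose 3' to 5' ratios were the lowest, had all 15 between log2 differences of -0.57 (SARS2) and 0.41 (LARS2).

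NARS2, the mitochondrial asparaginyl-tRNA synthetase, had 89.2 in pLKO, 43.6 in clone 1, 72.7 in clone 2 and 33.7 in clone 3. All clones were below the control, and its mean log2 difference of -0.91 ± 0.56 (SD, n = 3 comparisons) was the lowest of the mitochondrial members with the floor of 16 (with a floor of 1, PARS2 and SARS2 were lower, at -0.970 and -0.965), with a limma p of 0.239 before adjustment. In the values as deposited it had 0.01 in clone 2, so its direction there rests on the normalization.

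IARS2, the mitochondrial partner of IARS1, had 441 in pLKO, 373 in clone 1, 438 in clone 2 and 165 in clone 3. SARS2, the partner of SARS1, had 69.3 in pLKO, 80.7 in clone 1, 46.6 in clone 2 and the floor of 16 in clone 3, which makes it at least 4.33-fold lower there. PARS2, the mitochondrial prolyl enzyme, had 63.5 in pLKO, 47.0 in clone 1, 64.8 in clone 2 and the floor in clone 3, at least 3.97-fold lower. For these genes clone 3 alone stood far from the control. HARS2 was 1.31-fold, 1.10-fold and 2.06-fold lower in clones 1, 2 and 3, and RARS2, whose product serves arginine, was 2.26-fold lower in clone 3 with log2 differences of -0.20 and 0.07 in clones 1 and 2.

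AARS2, LARS2 and VARS2 were higher than pLKO in all 3 comparisons. AARS2, the partner of AARS1, had 56.9 in pLKO, 59.9 in clone 1, 59.6 in clone 2 and 90.1 in clone 3. LARS2 lay 1.20-fold, 1.33-fold and 1.30-fold above pLKO, and VARS2 1.33-fold, 1.14-fold and 1.45-fold. In the deposited values and after median centring, all of these were mixed in direction, and the deposited values turned the means of AARS2 and VARS2 to -0.11 and -0.084. YARS2 had 76.2 in pLKO against 106, 64.3 and 159, and EARS2, the glutamyl enzyme, had 72.8 against 83.5, 59.1 and 132. For both, clone 2 lay below the control and the other clones above, a pattern not seen in the deposited values, where EARS2 was lower in every clone and the signs of YARS2 were opposite. Of the 4 EARS2 probe sets tested, 2 were lower in every clone. With quantile normalization and by the brightest probe set, CARS2, FARS2, MARS2 and WARS2 had no difference wider than -0.50, that of MARS2 in clone 3. In clone 3 they had -0.96, -0.46, -0.67 and -0.24 after median centring, and -1.58, -1.08, -1.29 and -0.86 in the deposited values. The median of all genes tested in clone 3 was -0.53 and -1.07 under these scalings. Another FARS2 probe set had 0.71 in clone 2 and -0.94 in clone 3, and another of CARS2 had 0.74 in clone 3.

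Setting each cytosolic gene against its mitochondrial partner compares both on the same pair of arrays. In 15 such pairs, where EPRS1 and FARS2 are each used in 2 pairs, the cytosolic difference from pLKO was below the mitochondrial one in 10 pairs in clone 1, 12 in clone 2 and 5 in clone 3. It was below in all 3 clones for 4 pairs (alanine, tryptophan, tyrosine and valine) and above in all 3 for 3 pairs (histidine, asparagine and FARSB with FARS2). After median centring and in the deposited values leucine joined the first 4, FARSB left the second group, and the counts by clone were 12, 12 and 6. For alanine the difference between AARS1 and AARS2 was -1.45, -1.37 and -2.39 on the log2 scale in clones 1, 2 and 3, and for tryptophan it was -2.38, -1.79 and -0.55. For asparagine it ran the other way, at 1.20, 0.01 and 3.39. For serine it turned from -2.26 and -0.73 in clones 1 and 2 to 1.42 in clone 3, where SARS2 was at the floor.

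HARS1 and HARS2 are neighbours that point away from each other on chromosome 5, with annotated starts 85 bases apart (140691370 on the minus strand and 140691455 on the plus strand, GRCh38.p14). HARS1 lay above HARS2 by 0.55, 0.51 and 1.03 in its difference from pLKO. The products are close relatives, and whether their probe sets share signal was not tested.

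**Figure D3:**
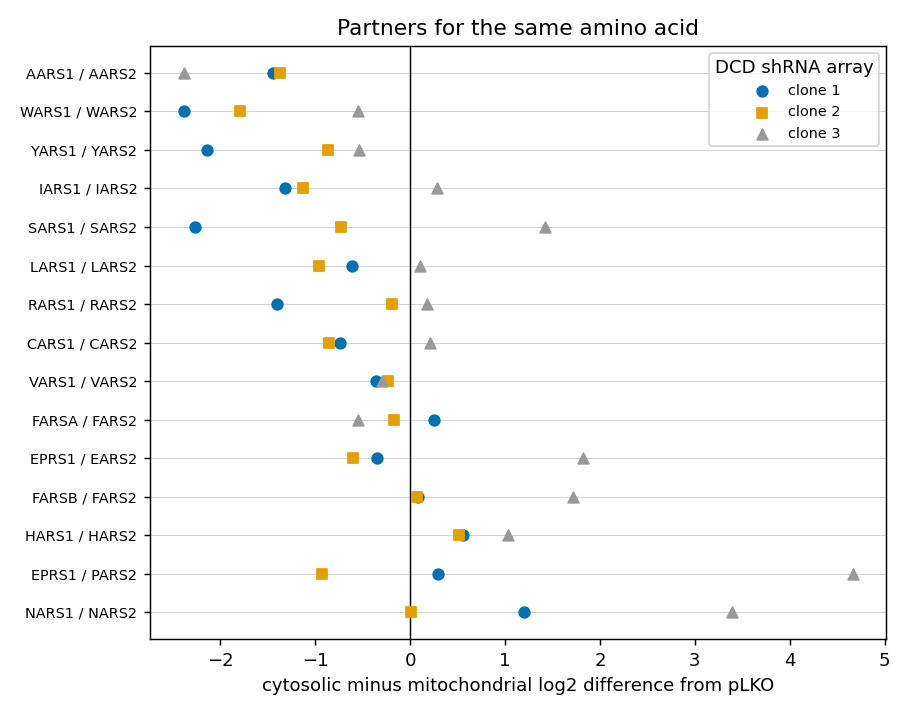
Difference between the log2 difference from pLKO of a cytosolic gene and that of its mitochondrial partner for the same amino acid, in 15 pairs ordered by their mean. Each point is 1 clone (circle, clone 1; square, clone 2; triangle, clone 3) and points left of the vertical line have the cytosolic gene further below pLKO. Clones 1 and 2 lie left of the line in 10 and 12 pairs, clone 3 in 5.

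The other steps of tRNA use were read from lists of their genes. Over all genes tested, 21.3% were lower and 18.8% higher in all 3 comparisons. Apart from EIF2B5, a gene given by value is the one with the largest smallest change in the direction of its list's median. Such a gene was picked from these values and is an extreme of its list. Of 18 measured genes for tRNA maturation and export, 0 were lower in all 3 comparisons and 2 were higher, among them the RNase P subunit RPP30 at 1.30-fold, 1.10-fold and 1.76-fold. As a list they had median log2 differences of 0.14, -0.04 and 0.26 in clones 1, 2 and 3. Of 17 mitochondrial translation factors and tRNA enzymes, 2 were lower and 3 higher, with medians of -0.09, 0.02 and 0.36, and the mitochondrial elongation factor TSFM was 1.27-fold, 1.16-fold and 1.31-fold lower. The 75 measured mitochondrial ribosomal proteins had medians of -0.21, 0.13 and -0.43, with 14 lower and 9 higher.

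Of the translation elongation factors and EEF1E1, a further scaffold of the synthetase complex, 4 of 7 were measured, with medians of -0.01, 0.04 and -0.60. EEF2 was 1.38-fold, 1.12-fold and 1.52-fold lower. Of 13 genes that sense uncharged tRNA or act on eIF2, 3 were lower and 2 higher in all 3 comparisons, beside 21.3% and 18.8% of all genes. Their medians were -0.34, 0.06 and 0.19. EIF2B5, a subunit of the eIF2 exchange factor named after its values were seen, was the one past 1.5-fold in all 3, at 1.65-fold, 2.07-fold and 2.06-fold higher, with -0.19 on the log2 scale in clone 3 in the deposited values. PPP1R15B, which directs the dephosphorylation of eIF2, was 1.71-fold, 1.36-fold and 2.54-fold lower. The ATF4 amino acid response outside the synthetases had medians of -0.995, -1.30 and 0.01, and 26, 27 and 14 of its 28 genes lower in clones 1, 2 and 3. Over all genes tested, 48.5%, 49.2% and 53.8% were lower in these clones. PCK2, a mitochondrial enzyme of gluconeogenesis and the extreme of the 28 by the rule above, was 2.95-fold, 2.99-fold and 5.38-fold lower. In clones 1 and 2 together, 13 of these 28 genes were at least 2-fold lower, as were 1.98% of all genes.

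**Figure D4:**
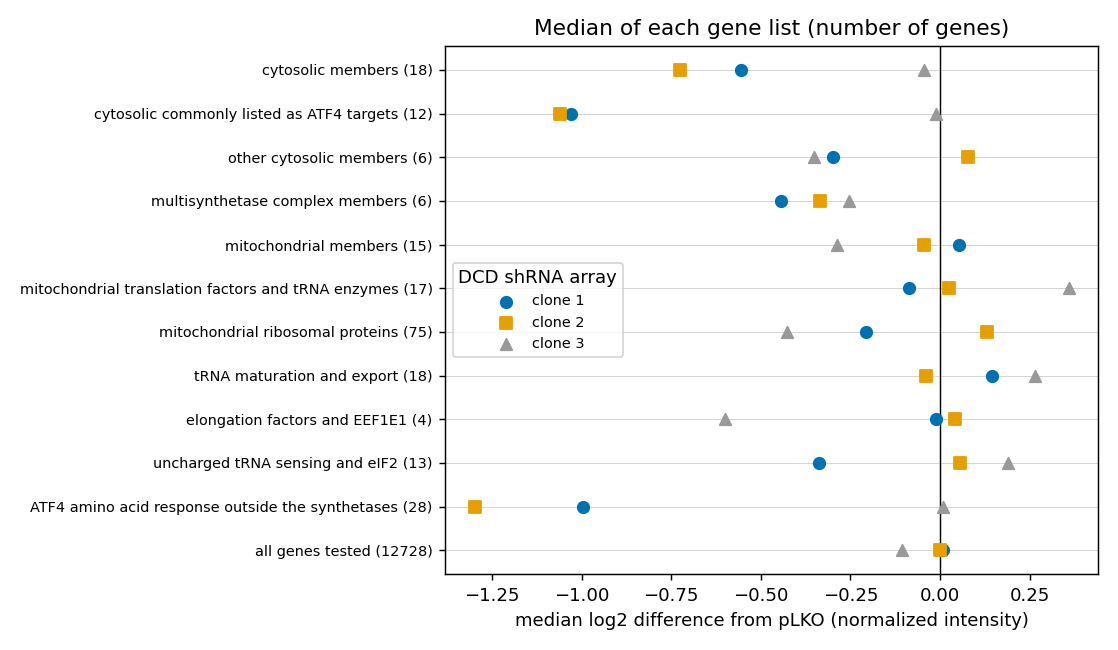
Medians of the log2 difference from pLKO for the synthetase groups, other gene lists and all genes tested, each label giving how many genes it holds. A point is 1 clone (circle, clone 1; square, clone 2; triangle, clone 3). The cytosolic members listed as ATF4 targets (-1.03 and -1.06) and the ATF4 response genes (-0.995 and -1.30) lie about 1 unit below 0 in clones 1 and 2. Both lie near 0 in clone 3 with the quantile normalization drawn here. After median centring and in the deposited values, 10 of the 12 members listed as ATF4 targets lay below pLKO in clone 3. So did 8654 and 10755 of the 12728 genes tested, in the same order.

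limma called 0 of the 33 members at an adjusted p under 0.05, and 0 had an unadjusted p under 0.05. Over all 27307 probe sets it called 0 (0%), and before adjustment 125 (0.458%) were lower and 81 (0.297%) higher at that threshold. The methods' t-test, paired over the 3 differences, passed no member after Benjamini-Hochberg adjustment. Those differences share the lone pLKO array, so that test leaves out how this array would vary. An exact permutation of 4 arrays into 3 and 1 cannot give a p below 0.25. The differences above are therefore descriptions of these 4 arrays.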

How the data were processed

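Intensities of 54675 probe sets on 4 Affymetrix U133 Plus 2.0 arrays were deposited by the authors as linear intensity values. The methods name dChip, and which program made these values is not stated in the sources used. Array medians differed (13.4 to 24.7), so they were taken as not normalized. Of the probe sets, 43.9% lay under 16 in clone 1, 39.3% in clone 2, 55.1% in clone 3 and 43.4% in pLKO. The number of arrays limits the precision.

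Values of 0 were set to 0.1. log2 values were quantile normalized and floored at log2 of 16. After leaving out 62 control probe sets, the brighter part by mean log2 (cut at the median, 27307 probe sets) was tested with limma 3.58.1 (R 4.3.3; 2 residual degrees of freedom, Benjamini-Hochberg). Genes came from the platform annotation, with 41091 probe sets of 1 gene, 1801 of several and 11777 unnamed here. For 41037 the symbol was updated by gene identifier (GRCh38.p14 table). The brightest probe set by mean log2 represented a gene, except where all its probe sets were averaged. Scripts were tested on simulated data. Figures were drawn with matplotlib 3.10.9.

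The members and gene lists were chosen with earlier results of these data known. Values by array were planned for members at least 1.5-fold different in 1 direction in all comparisons, the 3 others of widest range, their partners and AIMP1, and were added for the remaining members. Alternatives were median centring, values as deposited, floors of 1 and 64, no filter, an upper quartile filter, the mean of all probe sets, each clone left out, an intensity trend in limma and the methods' t-test.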

Additional observations from a re-analysis of the deposited data

How the results depend on the processing

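The arrays could not be paired because the pLKO array has no replicate, and the methods' t-test sets each clone against that same array. With median centring, the median log2 difference was -0.99 for the cytosolic and -0.42 for the mitochondrial members, and in the values as deposited it was -1.12 and -0.56, while the median of all genes moved from -0.06 to -0.30 and -0.42. Cytosolic members lower in all 3 comparisons numbered 11 and 9 under these scalings, with 0 higher, and mitochondrial ones numbered 5 and 2, with 0 higher. Of the 12728 genes tested, 3461 and 2599 were lower in all 3, and 1506 and 921 were higher. AARS2 and VARS2 turned to -0.11 and -0.084 in the values as deposited. With a floor of 64, 3 mitochondrial members were lower and their median was 0.00. With the upper quartile filter, 3 of 10 were lower and their median was 0.072. With the mean of all probe sets, the cytosolic median was -0.094, the cytosolic minus mitochondrial median turned from -0.34 to 0.076, FARSA turned to 0.24 and FARS2 to 0.034. Leaving out each clone in turn gave 8 to 13 cytosolic and 5 to 7 mitochondrial members lower in the remaining comparisons, medians from -0.67 to -0.41 and from -0.30 to -0.07, and a difference of medians from -0.60 to -0.11. The 13 came without clone 3, where 30.8% of all genes were lower in both remaining comparisons. Shares of all genes without clone 1 or clone 2 are not given here. limma and the methods' t-test called 0 members after adjustment under each alternative run, with the smallest adjusted p at 0.444 (no filter). Except for these changes, the cytosolic count, both medians and the difference of medians kept their direction. The cause of each change was not tested. Signal over background limits the dim members, among them SARS2 and PARS2, which were at the floor in clone 3.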
